A study of Mus musculus with 13 samples.

Results

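The genes described here encode the enzymes of glycolysis, of pyruvate entry into mitochondria, of the pentose phosphate pathway and of glycogen metabolism, with the enzymes that regulate them. The list names 38 genes by their place in these pathways, and it was drawn up with earlier results of these data known. Of these, 34 had a probe set annotated to 1 gene symbol, out of 18193 such genes on the array, and they were covered by 69 of the 45037 probe sets tested. Each gene was read from its brightest such probe set over the 6 arrays used. Gpi1, Eno1 and G6pdx had no probe set with that symbol in the annotation used. Gapdh was read only from control features of the array. The study asked how forced expression of OBF1, a B lymphocyte coactivator of the octamer factors Oct1 and Oct2, alters early B cell development. BCS mice carried a human OBF1 cDNA (p34 isoform, HA-tagged) driven by an immunoglobulin heavy chain variable promoter with the Eμ enhancer, elements that can also be active in T cells. Several founder lines were made, and the line used for the arrays is not given in the sources used here. EPLMs, early progenitors with lymphoid and myeloid potential, were sorted by a gate that included B220+, c-kit+, CD93+ and NK1.1- from bone marrow of 3 wild-type (WT) and 3 BCS mice. All were of the B6CF1 x C57BL/6 strain and 7 weeks old, and each array held the RNA of 1 mouse.

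Glycolysis splits glucose into pyruvate through a chain of kinases, isomerases and dehydrogenases, most of which exist as isozymes with tissue-specific expression. Pyruvate is reduced to lactate by lactate dehydrogenase or enters mitochondria through the pyruvate dehydrogenase complex, which pyruvate dehydrogenase kinases switch off. The pentose phosphate pathway draws on glucose 6-phosphate for NADPH and ribose 5-phosphate, and glycogen stores glucose as a branched polymer. Cycling lymphoid precursors are known to rely on glycolysis and on ribose for nucleotides.

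The intensities used were GCRMA values, with a median of 20 on each array. Pou2af1, the mouse gene of OBF1, was at 6278, 7250 and 3400.5 in WT and 10784, 10858 and 10323 in BCS mice, and whether its probe set detects the human transgene is not known. Of 5 genes of the gate and of early progenitors, 2 were lower in BCS mice, Ptprc, which encodes B220, by 0.40 on the log2 scale (adjusted p = 0.0101, limma) and the cytokine receptor gene Flt3 by 1.22 (adjusted p = 0.000650, limma). Kit was at 460 to 511 and Cd93 at 13822 to 24524 over all arrays, and neither was called. Klrb1c, which encodes NK1.1, had no probe set with 1 symbol. Marker lists of other cells differed in how far they moved with the genotype. Of 13 plasmacytoid dendritic cell genes, 10 were lower in BCS mice, and of 11 B lineage genes, 8 were higher, among them Pou2af1. Over all genes, 4.7% were called lower and 3.15% higher. Of 19 myeloid genes 2 were lower, and of 11 NK cell genes 2 were lower. Of 12 erythroid and megakaryocyte genes 1 was higher, Car2, and of 10 T cell genes 2 were higher and 1 lower. Most changes in the first 3 of these lists were negative, called or not. They were negative for 18 of 19 myeloid, all 11 NK cell and 10 of 12 erythroid and megakaryocyte genes, with median log2 changes of -0.27, -0.95 and -0.96. In the T cell list 4 were positive and 6 negative. WT replicate 2 stood apart, with the highest level of 17 of 19 myeloid genes and of all 11 NK cell genes. Each call below was therefore also computed without it.

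Of the 34 genes measured, 5 passed the test between WT and BCS EPLMs. Ldhb and Aldoc were downregulated in BCS mice, and Ppp1r3b, Pfkfb3 and Pdk1 were upregulated, at an adjusted p under 0.05 in limma over all probe sets. These 3 of 34 genes (8.82%) compare with 3.15% of all genes called higher, and the 2 called lower (5.88%) with 4.7% of all genes. Among all probe sets the shares were 2.24% higher and 3.25% lower. Bright genes were called more often: 13.8% of all genes with a mean intensity of at least 100 were called in either direction, and 4 of the 28 such enzymes (14.3%), a share close to that of the bright genes. The median log2 change of the 34 genes was 0.02, and that of all probe sets was 0.01. The genotypes did not overlap in 7 of the 34 genes (20.6%), against 28.7% of all genes. The 29 genes that did not pass the test changed by -0.40 to 0.39 on the log2 scale, 16 with a positive and 13 with a negative sign. For 28 of them the 95% confidence interval stayed within a 2-fold change either way, and the exception was Pygl. Without WT replicate 2, the 2 lower genes and 2 of the 3 higher genes passed, and Pdk1 did not (adjusted p = 0.0904 in limma).

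**Figure D1:**
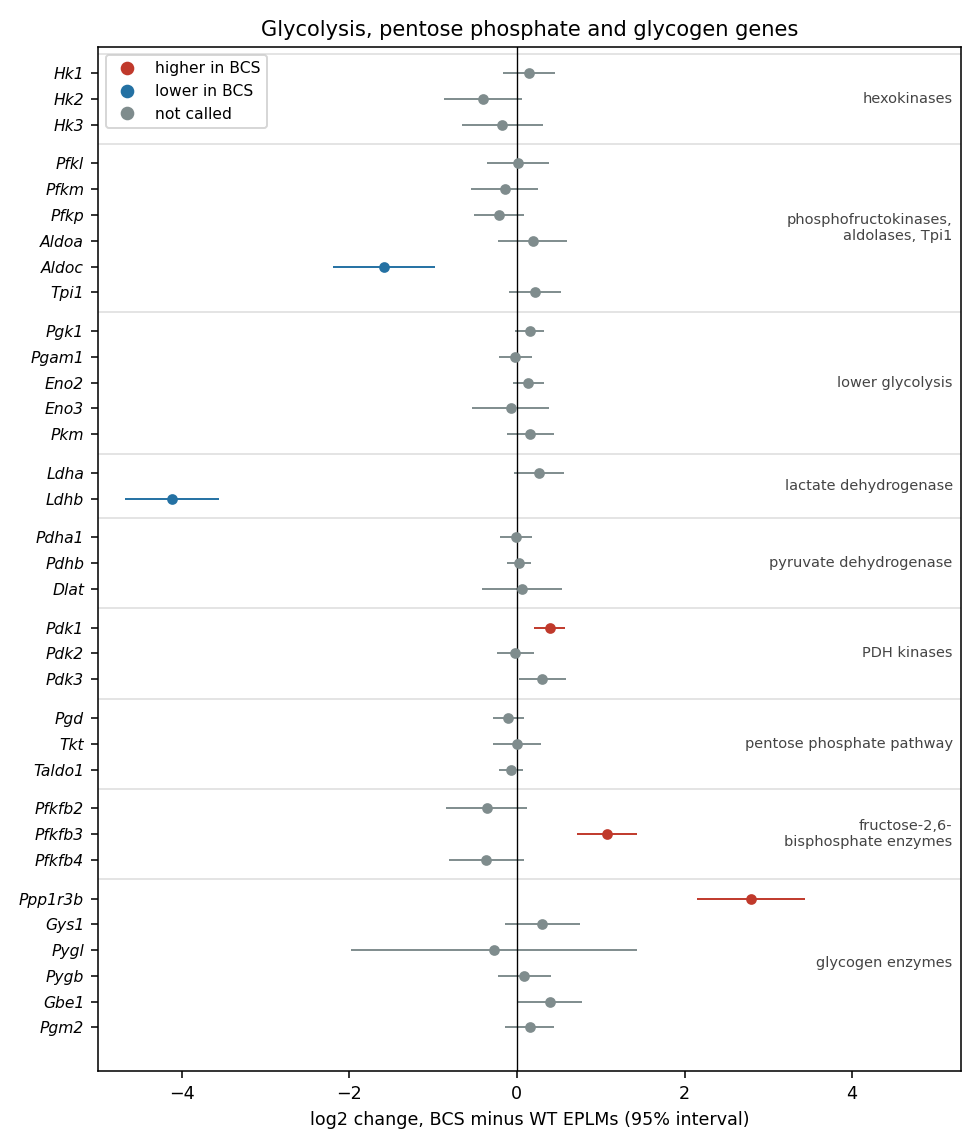
Log2 change of BCS minus WT EPLMs for the 34 genes, grouped by role, with 95% confidence intervals from limma (3 mice per genotype). Ldhb at -4.11 and Ppp1r3b at 2.79 lie farthest from 0, and most intervals cross 0.

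The promoters of 4 of the 5 called genes are shown because OBF1 acts through octamer sites and because HIF-1 and MYC are textbook regulators of glycolytic genes. The 250 bases upstream of the start were taken from RefSeq (GRCm38.p6), in which 37 of the 38 genes had at least 1 start, 54 starts in all. Capitals mark the octamer ATGCAAAT and the HIF cores ACGTG and GCGTG on either strand. Searched beside them was the E-box CACGTG, which contains ACGTG. For genes with several starts the first in the table is given.
Pfkfb3, chr2:11553930-11554179, minus strand: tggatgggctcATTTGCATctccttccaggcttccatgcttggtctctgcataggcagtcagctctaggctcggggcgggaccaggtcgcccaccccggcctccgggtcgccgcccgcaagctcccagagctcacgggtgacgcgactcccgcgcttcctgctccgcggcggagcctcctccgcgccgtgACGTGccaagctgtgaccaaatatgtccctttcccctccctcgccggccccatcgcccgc
Pdk1, chr2:71872974-71873223, plus strand: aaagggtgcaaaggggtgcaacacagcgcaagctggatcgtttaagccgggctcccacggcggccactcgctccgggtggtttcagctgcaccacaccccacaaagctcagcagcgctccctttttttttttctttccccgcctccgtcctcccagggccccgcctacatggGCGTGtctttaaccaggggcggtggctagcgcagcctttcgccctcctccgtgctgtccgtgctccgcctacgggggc
Aldoc, chr11:78322823-78323072, plus strand: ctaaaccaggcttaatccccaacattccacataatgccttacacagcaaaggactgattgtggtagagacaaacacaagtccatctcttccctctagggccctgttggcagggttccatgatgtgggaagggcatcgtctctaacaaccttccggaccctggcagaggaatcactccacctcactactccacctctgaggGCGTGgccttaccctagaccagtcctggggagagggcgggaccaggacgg
Ldhb, chr6:142507958-142508207, minus strand: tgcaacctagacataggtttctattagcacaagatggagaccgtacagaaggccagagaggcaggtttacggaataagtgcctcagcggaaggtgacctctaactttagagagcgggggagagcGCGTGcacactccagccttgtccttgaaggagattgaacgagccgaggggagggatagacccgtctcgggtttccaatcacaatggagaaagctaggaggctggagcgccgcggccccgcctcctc
The Pfkfb3 window held an octamer, read as ATTTGCAT, with its first base at position -239 from the start, and ACGTG at -60. The second Pfkfb3 start in the table had no octamer in its window, but 3 HIF core matches and an E-box. All but 1 of these HIF core matches lay within that E-box, which reads the same on either strand and was counted on each. The second Pdk1 window held no octamer, HIF core or E-box, and the second Aldoc window held 1 HIF core. GCGTG began at -78 for Pdk1, at -50 for Aldoc and at -126 for Ldhb. An octamer was found in 1 of the 54 windows (1.85%), against 1.6% of the 32851 windows in the table. A HIF core was found in 41 windows (75.9%), against 38.6% of all windows, and an E-box in 5 (9.26%), against 6.02%. The windows were not matched for base composition, and a match is a string of letters, not a bound site.

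Hexokinases trap glucose in the cell as glucose 6-phosphate, and none of the 3 measured passed the test. Hk1, the broadly expressed form, changed by 0.15 ± 0.14 (SE, n = 3 per genotype, here and below) on the log2 scale, and Hk3 by -0.17 ± 0.21, with intensities under 100 on every array. Hk2, the inducible form of growing cells, was at 794, 713 and 946 in WT and at 464, 643 and 774 in BCS mice. Its values overlapped, with BCS replicate 3 above WT replicate 2, and its log2 change of -0.40 ± 0.21 had a 95% interval from -0.87 to 0.06 (adjusted p = 0.353, limma).

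Phosphofructokinase commits sugar to glycolysis. Its liver, muscle and platelet subunits changed by 0.01 ± 0.16 (Pfkl), -0.15 ± 0.18 (Pfkm) and -0.22 ± 0.13 (Pfkp) on the log2 scale, and none was called. Aldolase then cleaves fructose 1,6-bisphosphate. The muscle and ubiquitous form Aldoa, at 1417 to 2122 in WT and 1548 to 2200.5 in BCS mice, did not pass the test (0.19 ± 0.18). Aldoc, the form known best from brain, was at 86.7, 77.1 and 137 in WT and at 31.5, 24.6 and 41.2 in BCS mice. Each BCS mouse lay below each WT mouse. Aldoc fell by 1.58 ± 0.27 on the log2 scale, 3.0-fold lower in BCS mice (adjusted p = 0.00991, limma), and its second probe set, near the array median, fell by 0.91 (adjusted p = 0.027, limma). Without WT replicate 2 the log2 change was -1.75 (adjusted p = 0.0146, limma). Tpi1, triosephosphate isomerase, changed by 0.21 ± 0.14 and was not called.

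In lower glycolysis 5 genes were tested and none was called. They make phosphoglycerate (Pgk1, 0.15 ± 0.08), shift its phosphate (Pgam1, -0.02 ± 0.09), form phosphoenolpyruvate (the neuronal Eno2, 0.14 ± 0.08, and the muscle Eno3, -0.07 ± 0.20) and form pyruvate (Pkm, 0.16 ± 0.12), with values on the log2 scale. Eno2 was below the array median on all 6 arrays. The 3′ control feature of Gapdh, the glyceraldehyde 3-phosphate dehydrogenase, read 16372, 15737 and 14113 in WT and 16552, 17804 and 17248 in BCS mice, and was left out of the test with the other controls. On this feature the BCS mice were higher, by little, with no overlap. The middle feature overlapped, at 6809 to 8998.5 in WT and 8326 to 9850 in BCS mice. The 5′ feature did not, at 2262 to 2855 in WT and 2869 to 3583 in BCS mice. The Gapdh ratio of 3′ to 5′ signal measures RNA length after amplification. It was 5.74 to 6.24 in WT and 4.97 to 6.01 in BCS mice, and the ranges overlapped. The same ratio of the Actb control features was 4.12, 4.94 and 5.91 in WT and 5.71, 5.90 and 6.44 in BCS mice, higher on average in BCS mice, with overlap. The part of RNA length in the results was not tested.

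The largest difference among the 34 genes was in lactate dehydrogenase. Ldhb, the H subunit typical of heart, was at 1336, 1425 and 2137 in WT EPLMs and at 117, 70.0 and 92.3 in BCS EPLMs. The lowest WT mouse lay far above the highest BCS mouse. Ldhb fell by 4.11 ± 0.25 on the log2 scale, 17.3-fold lower in BCS mice (adjusted p = 6.02e-05, limma), with a 95% interval from -4.67 to -3.56. All 4 probe sets of Ldhb fell, by 2.99 to 4.36. Ldha, the M subunit typical of muscle and of tumors, was at 5255, 4899 and 4562 in WT and 4915, 7234 and 5720 in BCS mice. Its genotypes overlapped, and its log2 change of 0.26 ± 0.13, with an interval from -0.04 to 0.57, did not pass the test (adjusted p = 0.348, limma). Without WT replicate 2, Ldhb changed by -4.20 on the log2 scale (adjusted p = 0.000362, limma).

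Of the 13 plasmacytoid dendritic cell markers, 10 fell together with Ldhb and Aldoc. Tlr7, Tlr9 and Spib were not called, and Spib changed by 0.25 on the log2 scale. The summed intensity of the 13 was 90518 to 100911 in WT and 42933 to 56989 in BCS mice. None of the 13 was below the array median on all arrays. Irf8, at 38751 to 39993 in WT and 23426 to 29268 in BCS mice, was the largest part of that sum. The summed NK cell markers, of which 2 of 11 fell, ranged from 8332 to 15333 in WT and from 1498 to 4335 in BCS mice, and none of them was below the array median on all arrays either. Klrd1, at 6901 to 8110 in WT and 1087 to 2430 in BCS mice, made up much of that sum, and without it the ranges overlapped, at 1430 to 7223 in WT and 412 to 3029 in BCS mice. Their part in the lower Ldhb and Aldoc levels was not tested. In sorted bulk samples, fewer cells of a type and less RNA per cell cannot be told apart.

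**Figure D2:**
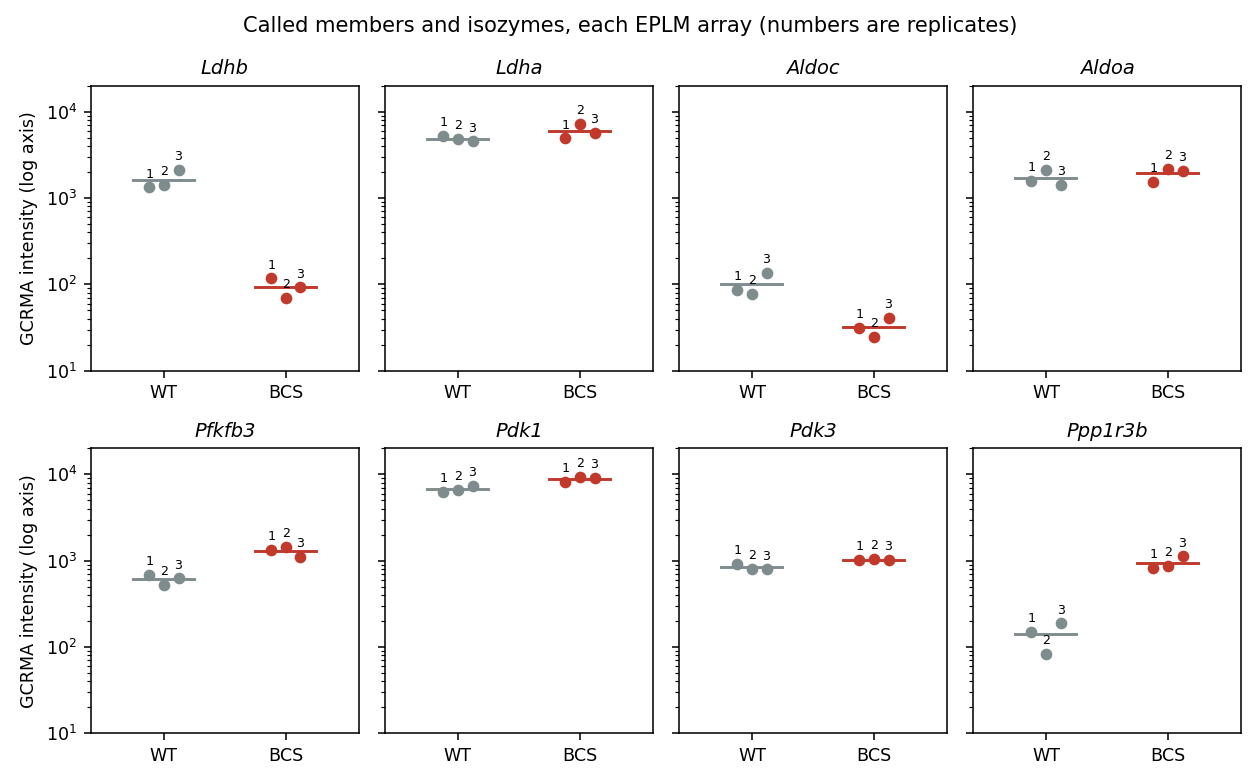
GCRMA intensity (log axis) on each of the 6 EPLM arrays for the 5 called genes and for Ldha, Aldoa and Pdk3, with numbers for replicates and bars for genotype means. Ldhb separates most, with 1336 to 2137 in WT and 70.0 to 117 in BCS mice, while Ldha overlaps.

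None of the 3 genes of the pyruvate dehydrogenase complex passed the test. Pdha1 and Pdhb, the subunits of its first enzyme, changed by -0.01 ± 0.08 and 0.03 ± 0.06 on the log2 scale, with 95% intervals within -0.20 and 0.18, and Dlat, its acetyltransferase, by 0.06 ± 0.21. Of the 3 kinases that inactivate it, 1 passed. Pdk1 was at 6321, 6606 and 7425 in WT and at 8262, 9298 and 9091 in BCS mice. The BCS mice were the 3 highest, by a small margin, and Pdk1 rose by 0.39 ± 0.08 on the log2 scale, 1.31-fold (adjusted p = 0.0268, limma). Of its 3 other probe sets, 2 rose, by 0.74 and 0.73 on the log2 scale. The call of the brightest was lost when WT replicate 1 or 2 or BCS replicate 2 or 3 was left out (adjusted p from 0.0857 to 0.106, limma). Pdk3 was at 914, 801 and 793 in WT and 1015, 1052 and 1028 in BCS mice. Its genotypes did not overlap either, but the log2 change of 0.31 ± 0.12 did not pass (adjusted p = 0.231, limma). Pdk2 was below the array median on all arrays.

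In the pentose phosphate pathway none of the 3 genes measured was called. Pgd, the second NADPH-forming step, changed by -0.10 ± 0.08 on the log2 scale, the transketolase Tkt by 0.00 ± 0.13 and the transaldolase Taldo1 by -0.07 ± 0.06. Tkt was at 26996, 26694 and 23204 in WT and at 28278, 29268 and 20258.5 in BCS mice, so that BCS mice held both the highest and the lowest value. The 4 probe sets of Pgd changed by -0.27 to -0.09. Downstream of ribose 5-phosphate, outside the 34 genes, 2 phosphoribosyl pyrophosphate synthetases rose. Prps2 was at 12485, 12415 and 12481 in WT and 17950, 15962.5 and 16613 in BCS mice, and Prps1 at 1422, 1306 and 1363 in WT and 1840.0, 2318 and 2202 in BCS mice. Neither overlapped between the genotypes, with log2 changes of 0.43 ± 0.06 (Prps2, adjusted p = 0.00256, limma) and 0.63 ± 0.12 (Prps1, adjusted p = 0.0185, limma). Prps2 passed without any 1 array, and Prps1 did not pass without WT replicate 2 or 3 or BCS replicate 2 or 3 (adjusted p from 0.0671 to 0.0788, limma).

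Fructose 2,6-bisphosphate is the strongest activator of phosphofructokinase, and the bifunctional Pfkfb enzymes make and degrade it. Pfkfb3, the form with the highest ratio of kinase to phosphatase activity, was at 685, 524 and 627 in WT and at 1331, 1440 and 1109 in BCS mice. All BCS mice lay above all WT mice. Pfkfb3 rose by 1.08 ± 0.16 on the log2 scale, 2.11-fold (adjusted p = 0.00503, limma), and by 0.97 without WT replicate 2 (adjusted p = 0.0183, limma). Its other probe set, at 17.3 to 23.4 and so near the array median, did not pass (0.20, adjusted p = 0.481, limma). Pfkfb4 was at 175, 257 and 242.5 in WT and at 184, 155 and 177 in BCS mice, and Pfkfb2 at 84.8, 74.1 and 71.7 in WT and 79.0, 49.5 and 54.0 in BCS mice. Both overlapped and neither was called, with log2 changes of -0.37 ± 0.20 and -0.36 ± 0.21.

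The glycogen genes held the largest rise. Ppp1r3b, which encodes a targeting subunit that brings protein phosphatase 1 to glycogen and thereby favors glycogen synthesis, was at 150, 83.7 and 188 in WT and at 825, 867 and 1125 in BCS mice. The genotypes were far apart, and Ppp1r3b rose by 2.79 ± 0.29 on the log2 scale, 6.93-fold (adjusted p = 0.000740, limma). It has 1 probe set, and the log2 change was 2.46 without WT replicate 2, its lowest mouse (adjusted p = 0.000819, limma). Gys1, the glycogen synthase outside liver, was at 50.7, 47.3 and 64.5 in WT and at 75.8, 56.5 and 68.7 in BCS mice, which overlapped, and its log2 change of 0.30 ± 0.20 was not called. Gbe1, the branching enzyme, was at 168.5, 186 and 199 in WT and 220.5, 234 and 275.5 in BCS mice. It did not overlap, yet 0.39 ± 0.17 on the log2 scale did not pass over all probe sets (adjusted p = 0.262, limma). Pgm2, which interconverts sugar phosphates, changed by 0.15 ± 0.13. Of 11 B lineage markers, 8 rose together with Ppp1r3b, Pfkfb3 and Pdk1, among them Pou2af1. The summed intensity of the 11 was 52868 to 83593 in WT and 116201 to 125701 in BCS mice. None was below the array median on all arrays. Igll1, at 7283 to 18817.5 in WT and 29224 to 31071 in BCS mice, was the largest part of that sum in BCS mice. Pou2af1 made up 3400.5 to 7250 of the sum in WT and 10323 to 10858 in BCS mice. The part of the B lineage markers in these rises was not tested.

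Glycogen breakdown starts with a phosphorylase. Pygb, the brain form, changed by 0.09 ± 0.14 on the log2 scale. Pygl, the liver form, was at 287, 1254 and 258 in WT and at 123, 832 and 516 in BCS mice. Its highest mouse was WT replicate 2 and its lowest BCS replicate 1, and its spread within a genotype, an SD of 1.36 on the log2 scale, was the widest of the 34 genes, whose median was 0.18. The summed intensity of the 19 myeloid markers was 31415, 114136 and 32417 in WT and 11328, 76621 and 51160 in BCS mice, and the 3 highest mice were those of Pygl. Of these markers 0 rose, 2 fell, and Cebpa and Cd14 were below the array median on all arrays. Their part in the Pygl values was not tested. The change of Pygl, -0.27 ± 0.75 with an interval from -1.98 to 1.44, left even a 2-fold difference undetectable, and it was 0.46 without WT replicate 2.

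Phosphorylase kinase activates the phosphorylases, and its subunits were listed among other genes of the pathway. Phkb, the β subunit, was at 3559, 3965 and 3812 in WT and at 2670, 2399 and 2554 in BCS mice, and Phka2, the liver α subunit, at 1533, 1639 and 1452 in WT and 1010.5, 823 and 1059 in BCS mice. All BCS mice were below all WT mice for both. Phkb fell by 0.57 ± 0.09 on the log2 scale (adjusted p = 0.00763, limma) and Phka2 by 0.68 ± 0.14 (adjusted p = 0.0210, limma). Phkb passed without any 1 array, and Phka2 did not pass without any 1 WT array or without BCS replicate 2 (adjusted p from 0.0589 to 0.0814, limma). Phkg2, a catalytic subunit, at 977 to 1079 in WT and 571 to 794 in BCS mice, did not overlap between the genotypes and did not pass (-0.56 ± 0.16, adjusted p = 0.0816, limma).

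**Figure D3:**
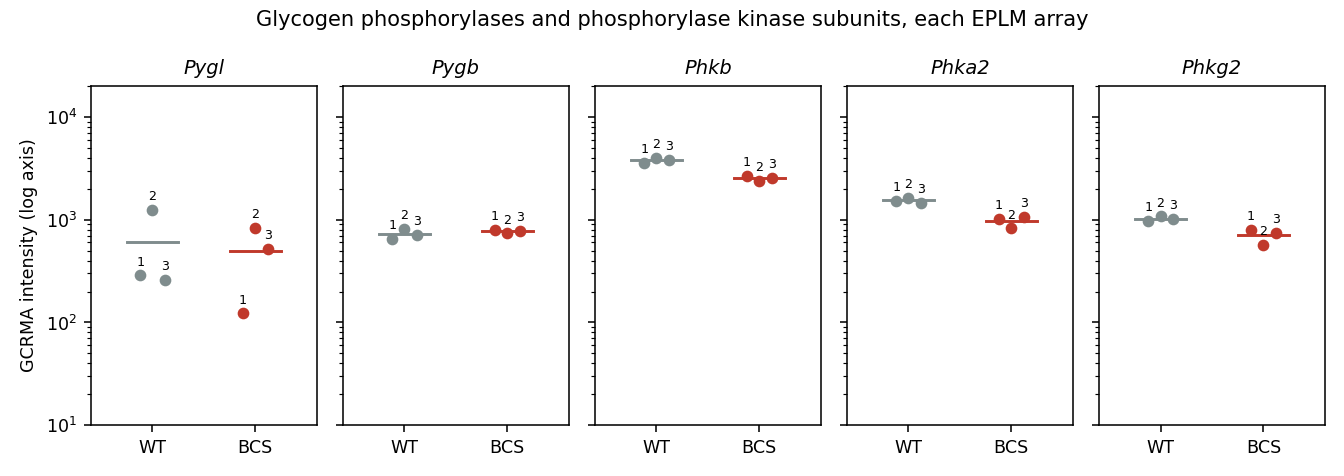
GCRMA intensity (log axis) on each EPLM array of the phosphorylases Pygl and Pygb and of the phosphorylase kinase subunits Phkb, Phka2 and Phkg2, with numbers for replicates and bars for genotype means. Pygl runs from 123 to 1254 across mice of both genotypes, while each of the 3 kinase subunits shows no overlap between the genotypes, with Phkb and Phka2 called lower and Phkg2 not called.

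Isozymes of 1 step were compared within each array, which removes any shift of a whole array. The difference of the log2 changes was taken for 15 pairs, with an exact two-sided permutation test whose smallest possible p is 0.1 for 3 against 3 mice, so no pair could pass. Ldha over Ldhb rose most, with log2 differences in intensity between the probe sets of 1.09 to 1.98 in WT and 5.38 to 6.67 in BCS mice, a difference of 4.38 ± 0.46 (exact p = 0.1, adjusted p = 0.25 over the 15 pairs). Aldoa over Aldoc moved by 1.77 ± 0.49 and Pfkfb3 over Pfkfb4 by 1.45 ± 0.32. In all, 6 of the 15 pairs did not overlap between genotypes, each at the smallest p. Beside this count, 28.7% of all single genes did not overlap, and no such share was taken over other pairs of genes. The 6 pairs are not independent of each other or of the single genes above. The pairs with Ldhb and Aldoc carry the falls of these genes, and 2 pairs share Pfkfb3. Another 2, Pdk1 over Pdk2 and Pdk2 over Pdk3, were taken against Pdk2, which was below the array median on all arrays. Hk1 over Hk2 overlapped (0.55 ± 0.34, exact p = 0.2), and so did Pdk1 over Pdk3 (0.08 ± 0.13, exact p = 0.7).

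**Figure D4:**
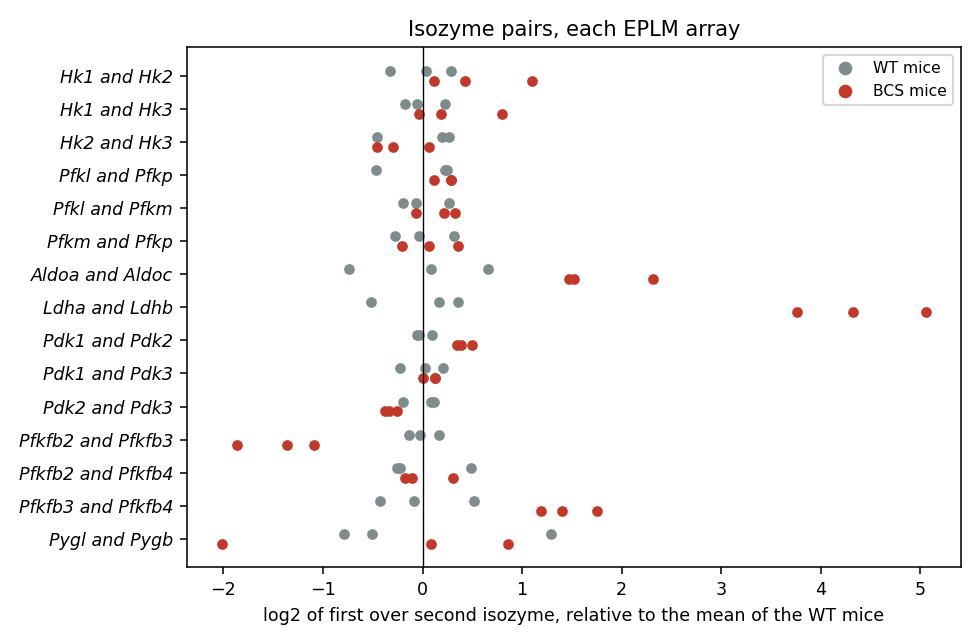
Log2 ratio of 2 isozymes on each EPLM array relative to the mean of the WT mice, for 15 pairs. Ldha over Ldhb, Aldoa over Aldoc and the pairs with Pfkfb3 set the 3 BCS mice apart from the 3 WT mice, and 9 pairs overlap.

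Of the 69 probe sets of these genes, 5 were called higher and 7 lower, against 2.24% higher and 3.25% lower of all probe sets. These calls repeat a few genes: 4 of the 7 lower were of Ldhb and 2 of Aldoc, and 3 of the 5 higher were of Pdk1. For 18 genes more than 1 probe set was available. Probe sets of a gene can detect different forms of its transcript, and 17 of the 69, in 9 of these 18 genes, carry a suffix that marks probes shared with other sequences, among them all 5 of Aldoa, 2 of Ldhb, 2 of Pgk1 and 3 of Pgd. Ldhb and Aldoc fell on every probe set. The 5 probe sets of Aldoa (0.15 to 0.20), the 3 of Tpi1 (0.17 to 0.21) and the 3 of Pgk1 (0.14 to 0.19) gave nearly the same log2 change, and none was called. Probe sets disagreed for Pfkl, where the dimmest, below the array median on every array, fell by 0.60 (adjusted p = 0.0467, limma) while the brightest changed by 0.01. For Dlat the 2 dimmer probe sets gave 0.55 and 0.49 without passing.

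**Figure D5:**
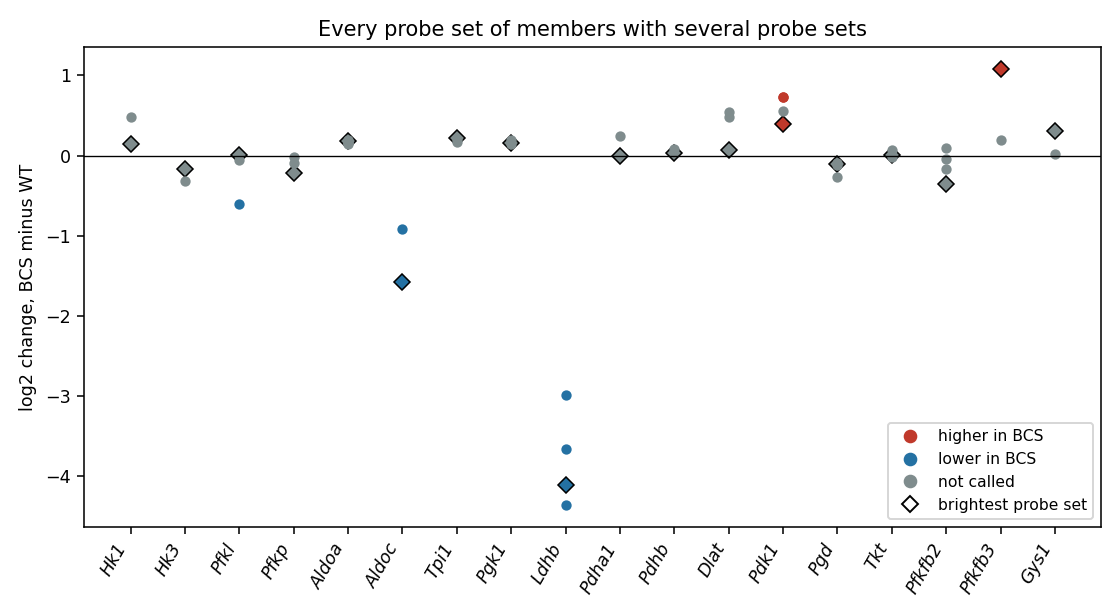
Log2 change of BCS minus WT EPLMs for every probe set of the 18 genes with several, with the brightest as a diamond and colors for the call. The 4 Ldhb probe sets lie between -4.36 and -2.99, and the dim Pfkl probe set at -0.60 is apart from the others of its gene.

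Beyond the 34 genes, 63 of 69 other genes of these pathways were measured, and Prps1, Prps2, Phkb and Phka2 were the ones that passed, 2 in each direction. Beside this count and those of the lists below, 3.15% of all genes were called higher and 4.7% lower. None of the 20 other glycolysis and gluconeogenesis enzymes and none of the 7 other pyruvate dehydrogenase and carrier genes passed. Of the 63, 21 were below the array median on all arrays, and the median log2 change was -0.05. In a list of the HIF-1 system and its targets outside these enzymes, 1 of 18 genes rose and 1 fell. Bnip3, a mitophagy receptor, fell by 0.78 ± 0.13 on the log2 scale (adjusted p = 0.00820, limma). Epas1, which encodes HIF-2α, rose by 2.10 ± 0.48 (adjusted p = 0.0399, limma), with 12.2 to 59.6 in WT and 94.3 to 169 in BCS mice, and of the 6 fits without 1 array it passed in that without WT replicate 2 alone (adjusted p otherwise from 0.0772 to 0.144, limma). In the proliferation list Cdk1 alone of 19 genes passed, higher by 0.58 ± 0.10 (adjusted p = 0.0119, limma). Of the 19, 14 had a positive and 5 a negative change, with a median log2 change of 0.12.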

How the data were processed

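EPLM RNA of 3 WT and 3 BCS mice was hybridized to Affymetrix mouse genome arrays, 1 mouse per array. For labeling, the methods give 2 amplification cycles and the array labels give 1. The authors normalized with GCRMA (version not given in the sources used here), and deposited 1 linear-scale intensity per probe set and array. The 7 large preB arrays of the 13 in the series were not used, since their values do not follow the probe set names. The 64 control features were left out of the tests.

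Log2 of the intensity plus 1 was fitted for 45037 probe sets in R 4.3.3 with limma 3.58.1 (lmFit, eBayes with trend, statmod 1.5.0), BCS minus WT. A gene was called at a Benjamini-Hochberg adjusted p under 0.05, with no fold minimum. Probe sets had 1 symbol (34945), several (932) or none (9160) in the platform annotation. A gene was read from its brightest single-symbol probe set. Named are all genes of the list, those called, with the 6 largest changes not called, by mouse, and up to 4 called genes per direction of other lists. Phkg2 was added after its values were seen. The genes and lists were chosen with earlier results of these data known. The fit was tested on simulated data. Alternatives were other tests, filters, scalings, offsets, thresholds and probe set choices, and leaving out each array. The number of arrays limits the precision. Some further items are not reported here.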

Additional observations from a re-analysis of the deposited data

How the results depend on the processing

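The fit called 2472 of all probe sets. It called 1057 at an adjusted p under 0.01, 1178 with 2-fold medians, 267 with the methods' t-test after adjustment and 875 with that test's p under 0.01 and 2-fold medians, and 1401 to 2241 without 1 array. The 3 higher genes were 0 with the adjusted t-test and 2 to 3 without 1 array. The 2 lower genes were 1 with the adjusted t-test, 1 with the filter on dim probe sets, which removes Aldoc, and 2 without any 1 array. The median log2 change of the 34 genes was 0.071 with the mean over probe sets, 0.084 with the most variable one and 0.01 to 0.06 without 1 array. The sign of the change turned in 24 of 674 values of single genes over 20 settings, in 9 genes, none of them called in the main analysis, and 17 of the 24 came from leaving out 1 array. In 19 the turned value lay within 1 SE of 0, as for Pygl without WT replicate 2 (0.46) or BCS replicate 1 (0.53), against a lowest value of -0.84 without BCS replicate 2. In the other 5 the sign turned for Dlat without WT replicate 2 (-0.17, up to 0.27 without WT replicate 3), for Pfkl with the mean over probe sets (-0.22) or its most variable one (-0.60) and for Pdha1 with the same (0.12 and 0.25). In 637 values sign and side of the threshold were kept, and 13 lost the call, 10 of them values of Pdk1, which kept it in 2 of 6 fits without 1 array and 8 of 14 other settings (adjusted p = 0.0834 without the trend, up to 0.523 with its most variable probe set, limma). Ldhb was called under each setting, and Ppp1r3b, Pfkfb3 and Aldoc without any 1 array. The 4 other pathway genes called were 0 with the t-test, adjusted or at 0.01 with 2-fold medians, 0 with 2-fold medians, 2 at an adjusted p under 0.01, 7 with the mean over probe sets and 2 to 4 without 1 array. This last set of alternatives, and those for isozyme pairs (6 to 8 without overlap), was chosen after seeing the data. The cause of these shifts was not tested beyond what each setting removes.

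Same-numbered WT and BCS mice did not deviate together (r = 0.01, 0.10 and 0.10 over 14957 probe sets), so the numbers were not taken as pairs. With the replicate number as a block, 1920 probe sets, the same 3 higher and 2 lower genes and 2 of the other pathway genes were called, with a median of 0.02.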

Other observations

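Fbp1, the gluconeogenic fructose bisphosphatase and a gene of the other pathway list, was singled out after its values were seen. It was at 31.0, 1858 and 31.6 in WT and at 1575, 1014 and 1330.0 in BCS mice. WT replicate 2 lay above all BCS mice and the other WT mice far below them. The log2 change of 3.37 ± 1.32 (SE, n = 3 per genotype) did not pass (adjusted p = 0.212, limma). Fbp1 passed without WT replicate 2, but leaving out the only WT mouse with a high value removes the overlap, so that fit adds no support. The muscle phosphorylase Pygm, also chosen after its values were seen, was at 39.2, 33.8 and 47.9 in WT and 20.6, 21.4 and 28.2 in BCS mice, which did not overlap, and its log2 change of -0.76 ± 0.19 missed the threshold (adjusted p = 0.0539, limma).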
